A study of Mus musculus with 9 samples.

Results

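RNA levels were read for 9 genes of bone morphogenetic protein (BMP) signalling, out of the 25239 genes of the deposited expression table. They are the ligands Bmp2, Bmp4, Bmp6 and Bmp7, the secreted antagonist Grem1 (gremlin 1) and the targets Id1, Id2, Id3 and Id4. The activity of the pathway was not measured. The genes were listed by name and selected on their FPKM in the 3 groups, values already known from this table, so their levels and differences are a description and carry no p-value. The libraries held polyadenylated RNA of primary astrocytes, the main glial cell of the brain, grown from the cerebral cortex of mice at postnatal day 4 on poly-D-lysine in medium with 10% horse serum and 10% fetal bovine serum. Cultures were given hydrogen peroxide (H2O2), an oxidant, at 200 µM for 3 h, washed, and harvested 24 h (day 1, 3 libraries) or 72 h later (day 3, 3 libraries). Control cultures were not treated (3 libraries), and the labels give them no harvest time. No strain or genotype is named, and the labels do not say whether the 3 libraries of a group came from separate cultures, so the errors and p-values below may reflect technical spread alone.

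BMPs are secreted signals of the TGF-beta superfamily. They bring together type I and type II receptor kinases, which phosphorylate SMAD1, SMAD5 and SMAD9; these join SMAD4 and enter the nucleus. Id genes are among the most direct targets of these SMADs. Id proteins hold a helix-loop-helix but no DNA-binding region, and they pair with basic helix-loop-helix (bHLH) proteins such as the E proteins and keep them off DNA. In the developing brain BMPs favour astrocyte over oligodendrocyte and neuronal fates, and gremlin 1 binds BMPs outside the cell and keeps them from their receptors.

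Promoter sequences of 6 of the 9 genes were matched in RefSeq (GRCm38.p6). The 250 bases before the start given by RefSeq are shown for 3 Id genes, as the targets of the pathway, and for Grem1 and Bmp6, the gene with the largest difference and the ligand with the highest level. Capitals mark every match on either strand to GGCGCC, a GC-rich element bound by BMP-activated SMADs, and to GTCT (AGAC on the other strand), the SMAD-binding element; no match overlapped another. Id2 lies at chr12:25096093-25096342 on the minus strand, Id3 at chr4:136143572-136143821 on the plus strand, Id4 at chr13:48260866-48261115 on the plus strand, Grem1 at chr2:113758649-113758898 on the minus strand and Bmp6 at chr13:38345466-38345715 on the plus strand. The gene positions given further on come from the GENCODE annotation, whose starts of Id2, Id3 and Bmp6 lie upstream of the RefSeq starts, so these 3 windows fall inside the GENCODE genes.
Id2: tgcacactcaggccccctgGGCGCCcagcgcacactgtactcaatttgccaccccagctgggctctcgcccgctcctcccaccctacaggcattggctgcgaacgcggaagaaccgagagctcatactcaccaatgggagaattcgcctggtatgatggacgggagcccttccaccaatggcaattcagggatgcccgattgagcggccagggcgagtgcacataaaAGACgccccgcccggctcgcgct
Id3: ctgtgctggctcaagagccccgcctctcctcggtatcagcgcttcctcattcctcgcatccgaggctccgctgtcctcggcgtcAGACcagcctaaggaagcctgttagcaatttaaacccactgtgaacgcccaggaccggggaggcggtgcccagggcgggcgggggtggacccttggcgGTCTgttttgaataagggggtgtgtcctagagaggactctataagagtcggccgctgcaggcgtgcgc
Id4: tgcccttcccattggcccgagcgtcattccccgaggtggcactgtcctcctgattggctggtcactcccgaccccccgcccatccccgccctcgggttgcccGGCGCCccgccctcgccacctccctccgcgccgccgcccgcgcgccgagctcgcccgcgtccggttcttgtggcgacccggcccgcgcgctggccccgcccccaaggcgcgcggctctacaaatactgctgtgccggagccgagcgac
Grem1: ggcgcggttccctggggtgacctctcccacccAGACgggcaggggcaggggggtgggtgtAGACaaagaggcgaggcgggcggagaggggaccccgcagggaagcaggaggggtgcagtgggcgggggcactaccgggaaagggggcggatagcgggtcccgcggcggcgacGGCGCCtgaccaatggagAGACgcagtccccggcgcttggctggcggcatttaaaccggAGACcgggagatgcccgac
Bmp6: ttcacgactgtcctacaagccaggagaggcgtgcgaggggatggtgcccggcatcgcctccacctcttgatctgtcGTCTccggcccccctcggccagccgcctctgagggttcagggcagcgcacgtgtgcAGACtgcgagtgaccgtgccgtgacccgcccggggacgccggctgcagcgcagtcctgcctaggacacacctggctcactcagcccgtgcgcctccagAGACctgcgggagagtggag
The window of Id2 held 1 GGCGCC, starting at position -231 from the start, and 1 GTCT. That of Id4 held 1 GGCGCC at position -148 and no GTCT, and that of Id3 held 2 GTCT and no GGCGCC. The window of Grem1 held 1 GGCGCC at position -78 and 4 GTCT, and that of Bmp6 held 3 GTCT and no GGCGCC. Of 32851 RefSeq mouse promoters of this length, 9.59% held GGCGCC and 82.9% held GTCT. The windows shown were 62.8% to 75.6% G or C, against a median of 52.4% over all windows, and GGCGCC holds only these letters. These are matches of letters, and binding was not measured here.

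Levels are given as FPKM, in which fragments are scaled by gene length and library total, so that genes of different length can be set side by side. Differences between groups are on the log2(FPKM + 0.1) scale unless a level is named. Depth was between 23032594 and 38414668 reads per library, at which 1 FPKM of a gene of 2 kb stood for 46.1 to 76.8 reads. All 10 astrocyte markers listed were above 1 FPKM on average, and Gfap, an intermediate filament of astrocytes, was between 1148 and 1531 FPKM in the 9 libraries. Markers of other cell types were also read. Their summed FPKM are given after the Id genes. Reads of Rn45s, the precursor of ribosomal RNA, were 7.67% to 9.36% of a library on day 1, 9.15% to 11.1% on day 3 and 9.41% to 11.9% in control.

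**Figure D1:**
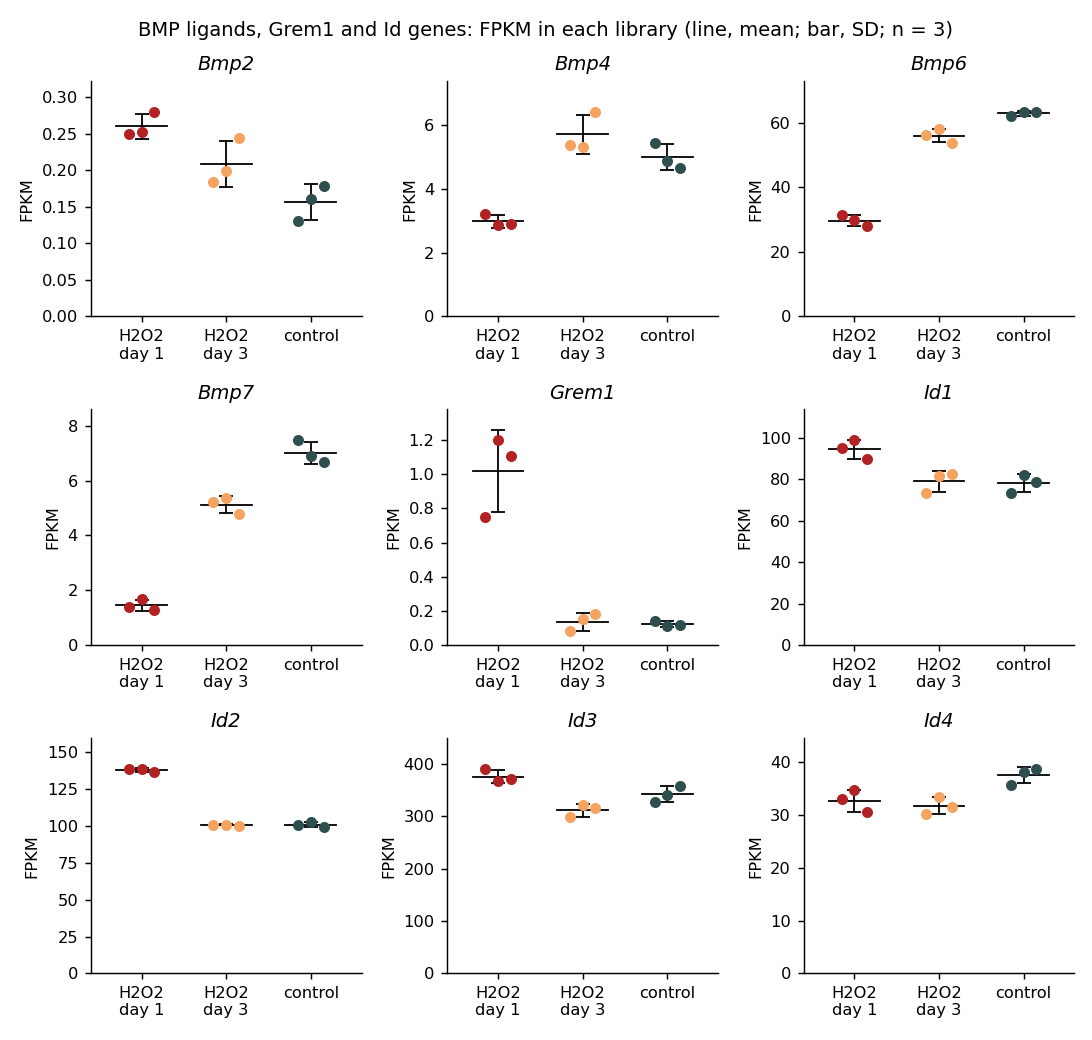
Level in FPKM of the 9 genes in each library, with H2O2 day 1, H2O2 day 3 and control from left to right; points are libraries, horizontal lines are group means and bars are SD (n = 3), on axes that start at 0. Bmp4, Bmp6 and Bmp7 were lowest on day 1, Bmp2, Grem1, Id1, Id2 and Id3 were highest on day 1, and Id4 was below control on both days.

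Id3 had the highest level of the 9 genes in every group, and Id2 and Id1 followed in that order. In control the order went on with Bmp6, Id4, Bmp7, Bmp4, Bmp2 and Grem1, and Bmp2 and Grem1 overlapped (0.130 to 0.178 against 0.111 to 0.141 FPKM). On day 1 Id4 (30.5 to 34.7 FPKM) and Bmp6 (27.9 to 31.3 FPKM) overlapped, and Bmp4 stood above Bmp7, Grem1 and Bmp2. On day 3 Bmp4 (5.30 to 6.42 FPKM) and Bmp7 (4.78 to 5.38 FPKM) overlapped, and the lowest Bmp2 library (0.184 FPKM) was next to the highest Grem1 library (0.183 FPKM). All other neighbours in these orders were apart in all libraries.

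The 3 ligands above 1 FPKM were lower on day 1 than in control, and higher on day 3 than on day 1. Bmp6 (chromosome 13, 38345107 to 38500302, plus strand, GRCm38), a ligand known best for its part in iron control through hepcidin, had 31.3, 29.8 and 27.9 FPKM on day 1, 56.2, 58.0 and 53.8 FPKM on day 3 and 62.0, 63.3 and 63.4 FPKM in control. Both treated groups lay below control in every library and did not overlap each other. On the log2(FPKM + 0.1) scale Bmp6 was lower on day 1 by a difference of -1.05 (SE 0.041, 95% interval -1.14 to -0.96), or 2.07-fold. On day 3 the difference from control was -0.15 (SE 0.041, interval -0.24 to -0.06). Exons of Bmp6 overlap exons of Txndc5 on the other strand, and whether counting used strand is not given in the sources, so reads there cannot be told apart. Txndc5 averaged 98.8 FPKM on day 1, 87.7 FPKM on day 3 and 85.0 FPKM in control, an order opposite to that of Bmp6. The other overlapping genes in the table, Gm15217 at Bmp4 and A330033J07Rik at Id4, were below 1 FPKM on average in each group.

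Bmp7 (chromosome 2, 172868012 to 172940321, minus strand), a close relative of Bmp6 with roles in kidney and eye development, had the largest relative difference from control of the 4 ligands. It had 1.39, 1.67 and 1.28 FPKM on day 1 (121, 171 and 108 reads), 5.24, 5.38 and 4.78 FPKM on day 3 (587, 723 and 645 reads) and 7.48, 6.89 and 6.68 FPKM in control (831, 971 and 772 reads). The 3 groups were apart in all libraries, with day 3 between day 1 and control. The day 1 difference from control was -2.18 on the log2 scale (SE 0.091, 95% interval -2.38 to -1.97), or 4.52-fold lower, and the day 3 difference was -0.43 (SE 0.091, interval -0.63 to -0.23), or 1.35-fold lower.

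Bmp4 (chromosome 14, 46383520 to 46390669, minus strand), a ligand of early patterning that can drive cultured neural precursors to astrocytes, had 3.22, 2.86 and 2.89 FPKM on day 1, 5.39, 5.30 and 6.42 FPKM on day 3 and 5.45, 4.88 and 4.66 FPKM in control. The day 1 libraries were below all others, and the day 3 and control libraries overlapped. The difference was -0.69 on the log2 scale on day 1 (SE 0.088, 95% interval -0.88 to -0.50), or 1.61-fold lower, and 0.20 on day 3 (interval 0.01 to 0.40). Bmp2 (chromosome 2, 133552159 to 133562885, plus strand), the nearest relative of Bmp4, had a far lower level. It had 0.249, 0.252 and 0.280 FPKM on day 1 (21, 25 and 23 reads), 0.184, 0.199 and 0.244 FPKM on day 3 (20, 26 and 32 reads) and 0.130, 0.161 and 0.178 FPKM in control (14, 22 and 20 reads). The groups did not overlap, but the highest day 3 library (0.244 FPKM) was next to the lowest day 1 library (0.249 FPKM). On day 1 Bmp2 ran opposite to the other 3 ligands, with 0.52 on the log2 scale (95% interval 0.22 to 0.82). On day 3 its difference from control was 0.28 (interval -0.02 to 0.58), above control as for Bmp4. Its difference of day 3 from day 1 was -0.24 (interval -0.54 to 0.06). These differences rest on 69 reads over the day 1 libraries, 78 over the day 3 libraries and 56 over the control libraries. Bmp2 was under the minimum of 1 FPKM for the test.

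Summed over the 4 ligands, the level was 34.4 ± 1.93 FPKM on day 1, 67.0 ± 1.81 FPKM on day 3 and 75.0 ± 0.186 FPKM in control (SD, n = 3 each). Bmp6 made up 86.3% of that sum on day 1, 83.5% on day 3 and 83.8% in control. The overlap of Bmp6 with Txndc5 described above limits this sum and these shares too. None of the 10 other ligands of the family that were listed (Bmp3, Bmp5, Bmp8a, Bmp8b, Bmp10, Bmp15, Gdf2, Gdf5, Gdf6 and Gdf7) reached a mean of 1 FPKM over the libraries. Bmp10, a ligand of the heart, had 0 FPKM in all 9. Bmp8b, a close copy of Bmp8a with which reads could be shared, is named after its values were seen; it had 18, 23 and 21 reads on day 1, 0, 2 and 1 on day 3 and 2, 1 and 0 in control. In bulk RNA, fewer cells of a type that makes a ligand and less of its RNA per cell cannot be told apart.

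Grem1 was higher on day 1. The gene (chromosome 2, 113746164 to 113758646, minus strand), which binds BMP2, BMP4 and BMP7, had 0.748, 1.20 and 1.11 FPKM on day 1 (29, 55 and 42 reads), 0.0799, 0.150 and 0.183 FPKM on day 3 (4, 9 and 11 reads) and 0.141, 0.111 and 0.116 FPKM in control (7, 7 and 6 reads). Every day 1 library was above all others, and day 3 and control overlapped. The ratio of mean FPKM between day 1 and control was 8.32; with the constant of 0.1 added, which shrinks ratios of low values, the log2 difference was 2.33 (SE 0.218, 95% interval 1.84 to 2.83). Grem1 was also under the minimum for the test.

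Of the Id genes, Id1, Id2 and Id3 were higher and Id4 was lower on day 1 than in control. Id1 (chromosome 2, 152736251 to 152737410, plus strand), the member most often used as a readout of BMP signalling, had 95.0, 98.9 and 89.6 FPKM on day 1, 73.2, 81.6 and 82.5 FPKM on day 3 and 73.4, 82.3 and 78.8 FPKM in control. The day 1 libraries were above all others, and day 3 and control overlapped. The difference from control was 0.31 on the log2 scale on day 1 (SE 0.052, 95% interval 0.19 to 0.42), or 1.24-fold higher, and 0.03 on day 3 (interval -0.08 to 0.15).

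Id2 (chromosome 12, 25093799 to 25097140, minus strand), a regulator of lymphoid and neural precursors, averaged 138 ± 1.36 FPKM on day 1, 101 ± 0.428 FPKM on day 3 and 101 ± 1.60 FPKM in control (SD, n = 3 each). The lowest day 1 library had 137 FPKM and the highest of the other 6 had 103 FPKM. Its log2 difference was 0.49 on day 1 (SE 0.024, 95% interval 0.43 to 0.54), or 1.40-fold higher, and 0.01 on day 3 (interval -0.04 to 0.07). Id2 had the smallest SE of the 9 genes.

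Id3 (chromosome 4, 136143497 to 136145755, plus strand), which acts largely in step with Id1 in the embryonic brain, had 391, 367 and 372 FPKM on day 1, 298, 322 and 316 FPKM on day 3 and 327, 340 and 358 FPKM in control. No groups overlapped, with day 1 above control and day 3 below it. The log2 difference was 0.17 on day 1 (SE 0.042, 95% interval 0.08 to 0.26) and -0.11 on day 3 (interval -0.21 to -0.02). Quantile normalization, which gives all libraries 1 distribution, brought the day 1 difference of Id3 down to 0.03.

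Id4 (chromosome 13, 48261228 to 48266026, plus strand), which can also oppose the other Id proteins, was the exception on day 1. It had 33.0, 34.7 and 30.5 FPKM on day 1, 30.3, 33.5 and 31.6 FPKM on day 3 and 35.8, 38.2 and 38.8 FPKM in control. The treated groups overlapped each other, and all 6 of their libraries were below control. The log2 difference was -0.17 on day 1 (SE 0.049, 95% interval -0.28 to -0.06), or 1.12-fold lower, and -0.22 on day 3 (interval -0.33 to -0.11), or 1.17-fold lower.

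Summed over the 4 genes, Id RNA was 642 ± 14.7 FPKM on day 1, 524 ± 18.9 FPKM on day 3 and 558 ± 19.1 FPKM in control (SD, n = 3 each). Within the sum, Id2 made up 21.5% on day 1, 19.3% on day 3 and 18.1% in control, and Id4 5.10% on day 1, 6.07% on day 3 and 6.73% in control. Id3 made up the greatest part in every library, 57.4% to 62.2%.

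**Figure D2:**
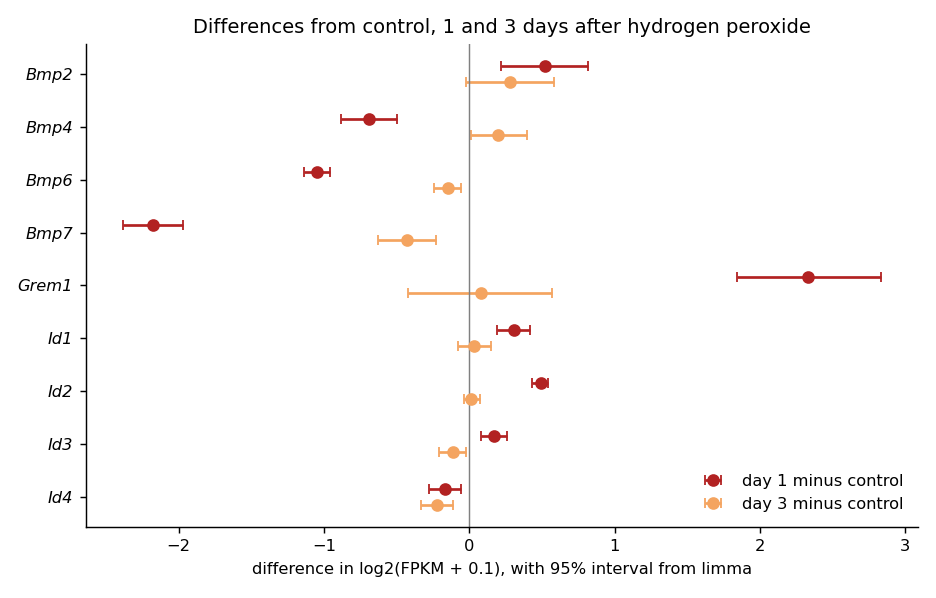
Difference in log2(FPKM + 0.1) of each of the 9 genes on day 1 and on day 3 from control, with 95% intervals from the fit over all 9 libraries; the vertical line marks no difference. On day 1 Bmp4, Bmp6, Bmp7 and Id4 lay below 0 and Grem1, Bmp2, Id1, Id2 and Id3 above it, while on day 3 only Bmp6, Bmp7, Id3 and Id4 had intervals wholly below 0.

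Both H2O2 groups were set against the same 3 control libraries. On day 1, 62.2% of the 12611 genes tested differed from control at an adjusted p under 0.05 (31.1% higher and 31.1% lower), so a place past this threshold was common. Of the 9 genes 7 were tested, and all 7 were past it, 3 higher (Id1, Id2 and Id3) and 4 lower (Bmp4, Bmp6, Bmp7 and Id4). All 7 had groups that did not overlap, as had 66.1% of genes tested (28.8% higher and 37.3% lower), and the groups of Bmp2 and Grem1 did not overlap either. On day 3, 13.8% of genes tested differed from control, and 3 of the 7, Bmp6, Bmp7 and Id4, were past the threshold, all lower, a direction taken by 6.45% of genes. The groups of Bmp6, Bmp7, Id3, Id4 and Bmp2 did not overlap on day 3, as those of 30.3% of genes tested (12.5% higher and 17.8% lower). Between day 3 and day 1, 56.2% of genes differed, and 6 of the 7 were past the threshold, with Bmp4, Bmp6 and Bmp7 higher and Id1, Id2 and Id3 lower on day 3. Those 6 had groups apart between the days, as had 61.8% of genes tested (33.0% higher and 28.9% lower), and so had Bmp2 and Grem1. Since the genes were chosen with these values known, nothing is read from their counts.

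Leaving out single libraries changed some of these places. Bmp7 was not past the threshold on day 3 without control replicate 1 or day 3 replicate 3, Bmp6 was not past it without any 1 of the control libraries or day 3 replicates 1 and 3, and Id4 was not past it on day 1 without day 1 replicate 3, nor on day 3 without control replicate 3 or day 3 replicate 1. Bmp6 was also not past it with no filter on low values and with no intensity trend, and was past it in 14 of 21 settings. The direction of each held in all these fits, with a day 3 difference of -0.47 to -0.37 for Bmp7, -0.19 to -0.12 for Bmp6 and -0.29 to -0.18 for Id4 on the log2 scale over all alternatives.

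Receptors for BMPs were mostly higher on day 1. Of 10 receptors and co-receptors listed 9 were tested, and 7 rose and 2 fell on day 1, with a median log2 difference of 0.39, beside -0.001 over all genes tested. The receptor gene left out by the filter, Acvr2b, averaged 0.644 FPKM on day 1, 0.914 FPKM on day 3 and 1.22 FPKM in control. With no filter on low values, 7 of the 10 rose and 3 fell on day 1. Of all genes tested, 31.1% rose and 31.1% fell on day 1. This list and those below were drawn up with earlier results of these data known, so their counts are a description. Bmpr1a, a widely expressed type I receptor, had 80.0 FPKM on day 1, 62.7 FPKM on day 3 and 62.7 FPKM in control on average, a rise on day 1 of 0.38 (adjusted p = 9.39e-07). Bmpr1b, the other BMP type I receptor of neural cells, rose by 0.39 on day 1 (adjusted p = 0.000173) to 5.31 FPKM, against 4.13 FPKM in control. Bmpr2, the type II receptor, rose by 0.34 on day 1 (adjusted p = 1.54e-05) to 24.0 FPKM, against 19.4 FPKM in control.

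The larger rises were in Eng, a co-receptor best known from vessels, by 1.40 on the log2 scale, to 5.71 FPKM on day 1, against 2.15 FPKM in control (adjusted p = 2.63e-07), and in Acvrl1, a type I receptor for BMP9 and BMP10, by 1.06 on the log2 scale, to 2.75 FPKM, against 1.30 FPKM (adjusted p = 2.67e-05). Summed endothelial markers were 12.7 to 13.5 FPKM on day 1 and 12.8 to 13.6 FPKM in control, but Cdh5 made up most of both sums (10.9 FPKM on day 1 and 11.1 FPKM in control on average) and the other 5 of the 6 markers were under 1 FPKM over the libraries. Among these, Flt1 was higher on day 1 (1.13 FPKM, against 0.508 FPKM in control) and Tek (0.192 FPKM on day 1, against 0.460 FPKM in control) and Kdr (0.801 FPKM on day 1, against 1.16 FPKM in control) were lower. The GPI-anchored co-receptors Rgma and Rgmb fell. Rgma had 20.4 FPKM on day 1 and 31.6 FPKM in control, a log2 difference of -0.59 (adjusted p = 9.26e-08), and Rgmb had a difference of -0.18 (adjusted p = 0.0108). On day 3, 4 receptors were higher (Acvr1, Acvrl1, Bmpr2 and Eng) and 1, Rgma, was lower than control; 2 were higher without control replicate 2 or without day 3 replicate 1. Eng was at 2.86 FPKM (0.42, adjusted p = 0.010). Acvrl1 was at 1.90 FPKM (0.54, adjusted p = 0.0166), and this call rested on control replicate 2 and day 3 replicate 1, with an adjusted p of 0.0545 and 0.0703 when each was left out. Bmpr2 (0.14, adjusted p = 0.0264) lost its day 3 call without control replicates 2 or 3 or day 3 replicates 1 or 3 (adjusted p = 0.0729 to 0.0965), and Rgma (-0.12, adjusted p = 0.0226) lost it without control replicates 1 or 2 or day 3 replicates 1 or 3 (adjusted p = 0.0675 to 0.0916).

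Other proteins that bind or process BMPs outside the cell were mostly higher as well. Of 21 listed 15 were tested, and 9 rose and 4 fell on day 1 (median 0.31 on the log2 scale). Fst (follistatin, which binds activins and some BMPs) rose by 1.78 on the log2 scale, to 8.96 FPKM on day 1, against 2.59 FPKM in control (adjusted p = 1.21e-07). Bmper, a secreted modulator of BMPs, rose by 1.77 on the log2 scale, to 12.5 FPKM, against 3.67 FPKM in control (adjusted p = 5.39e-09), and Tll1, a protease that cleaves the antagonist chordin, rose by 1.45 on the log2 scale, to 4.32 FPKM, against 1.55 FPKM (adjusted p = 6.68e-08). Nog (noggin, an antagonist of BMP2 and BMP4) rose by 0.52 on the log2 scale, to 10.7 FPKM, against 7.58 FPKM in control (adjusted p = 7.18e-05).

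The antagonists were not all higher. Chrdl1, a chordin-like antagonist made by astrocytes, fell to 2.59 FPKM on day 1, against 5.50 FPKM in control, a log2 difference of -1.03 (adjusted p = 1.20e-06). Chrd, chordin itself, fell to 2.31 FPKM, against 3.30 FPKM (-0.46, adjusted p = 0.00204), and Sostdc1, an antagonist of BMP and WNT, fell to 2.24 FPKM, against 3.51 FPKM (-0.60, adjusted p = 6.38e-05). On day 3, 6 of the 15 were higher and 1 was lower than control, with 3 higher when day 3 replicate 3 was left out. Fst was still above control by 0.67 (adjusted p = 0.00152), Bmper by 0.27 (adjusted p = 0.0122; 0.0503 without day 3 replicate 3), and Sostdc1 was still below it by a difference of -0.40 (adjusted p = 0.00682). Nog had 6.90 FPKM on day 3, and its difference of -0.12 from control did not pass (adjusted p = 0.285). Against day 1, 9 of the 15 fell on day 3 and 3 rose; Bmper had a difference of -1.50 (adjusted p = 2.53e-08), while Chrdl1 rose by 0.78 (adjusted p = 1.34e-05) and Chrd by 0.56 (adjusted p = 0.000733).

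**Figure D3:**
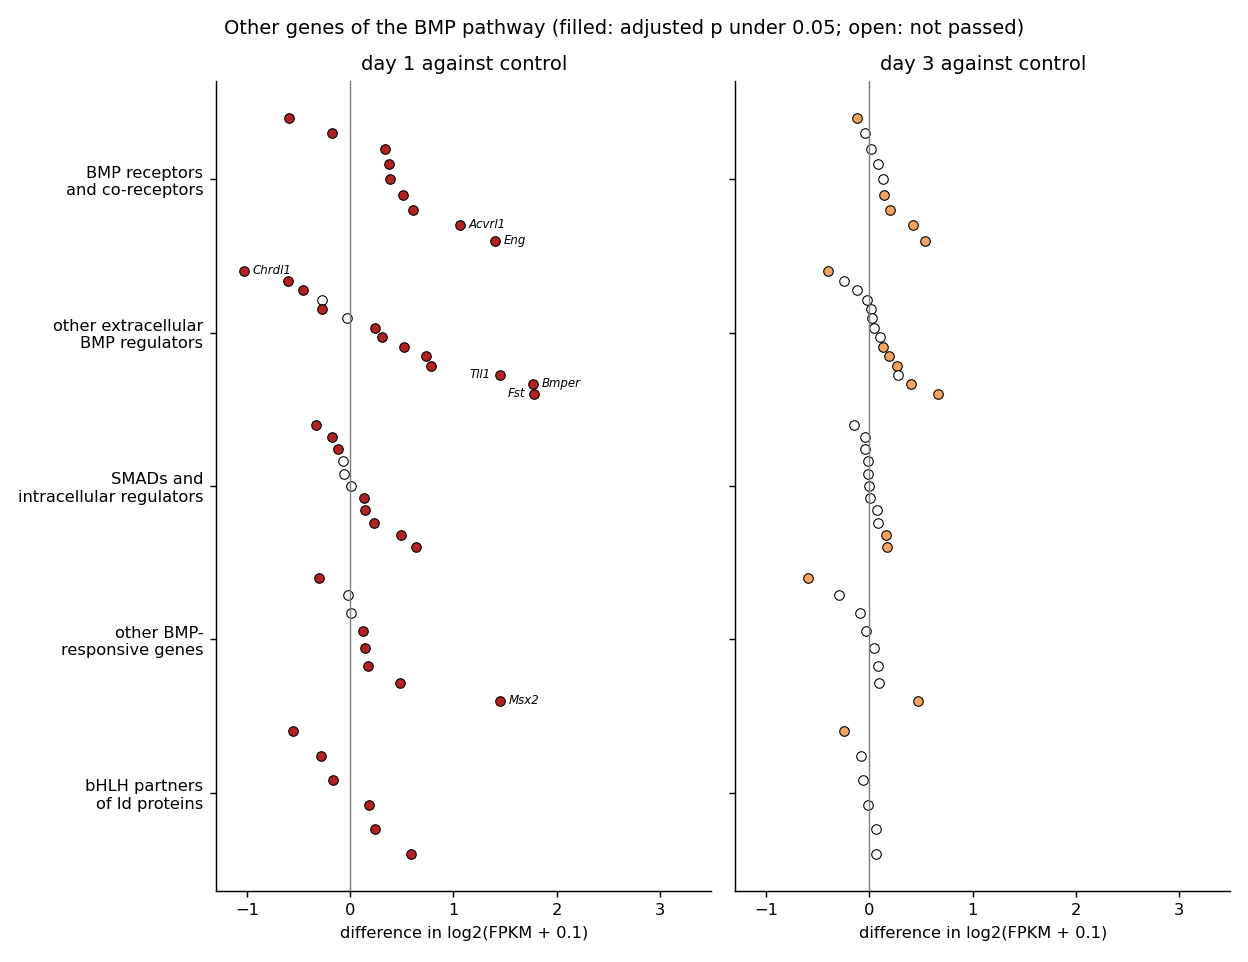
Difference in log2(FPKM + 0.1) of tested genes of 5 pathway lists, on day 1 (left panel) and on day 3 (right panel) against control; each point is a gene, filled where its adjusted p was under 0.05. Named genes changed by more than 0.95 on day 1, and on day 3 most points lay closer to 0.

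The SMADs that carry the signal changed little and the inhibitory ones rose on day 1. Of 11 genes of this list, all tested, 5 rose and 3 fell on day 1, with a median of 0.01. Smad6 and Smad7, which block BMP and TGF-beta receptors and are themselves induced by these signals, rose by 0.49 on the log2 scale (adjusted p = 1.52e-05), to 11.9 FPKM, against 8.63 FPKM in control, and by 0.64 on the log2 scale (adjusted p = 1.54e-06), to 6.81 FPKM, against 4.43 FPKM in control. Smad9 fell, with a difference of -0.18 (adjusted p = 0.00312), and Smad1 with one of -0.12 (adjusted p = 0.0126), a call lost without day 1 replicate 2 (0.0503) or day 1 replicate 3 (0.0502). Smad4 and Smad5 did not pass, with 95% intervals of -0.13 to 0.01 and -0.14 to 0.00. Bambi, a receptor-like inhibitor without a kinase that BMPs can induce, fell to 4.70 FPKM on day 1, against 6.06 FPKM in control, a difference of -0.33 (adjusted p = 0.000298).

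On day 3, 2 of the 11 were above control, the ubiquitin ligase Smurf2 by 0.17 (adjusted p = 0.00731) and Tob1, a repressor of BMP-activated SMADs, by 0.16 (adjusted p = 0.00632). Smad6 had 8.56 FPKM and Smad7 4.64 FPKM on day 3. Both fell on day 3 against day 1, with differences of -0.49 (adjusted p = 2.27e-05) for Smad6 and -0.56 (adjusted p = 6.26e-06) for Smad7. Over the same interval Bambi rose by 0.18 (adjusted p = 0.0140), a call lost without day 1 replicate 3 (0.0509) or day 3 replicate 1 (0.0576), and Smad9 rose by 0.16 (adjusted p = 0.00572).

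Of 14 other genes that BMPs can induce 8 were tested, and 5 rose and 1 fell on day 1 (median 0.13). Of the 5, Tmem100 (0.14, adjusted p = 0.0495) kept its call in 10 of 20 alternatives and Hey1 (0.12, adjusted p = 0.0120) in 16 of 20, and 3 genes of the list rose with FPKM as deposited. Msx2, a homeobox gene used like Id1 as a readout of BMP signalling, rose by 1.45 on the log2 scale, to 9.06 FPKM on day 1, against 3.31 FPKM in control (adjusted p = 1.20e-06), and was above control on day 3 by 0.47 (adjusted p = 0.0188; 0.0665 without control replicate 2). Runx2, a bone transcription factor, rose by 0.48 on the log2 scale, to 2.80 FPKM on day 1, against 2.02 FPKM (adjusted p = 0.00107). Dlx2, a homeobox gene of forebrain precursors, was the gene that fell, to 2.87 FPKM on day 1 (-0.30, adjusted p = 0.0131) and to 2.35 FPKM on day 3 (-0.59, adjusted p = 0.00192), against 3.66 FPKM in control. Against day 1, 5 of the 8 were lower on day 3 and none was higher. The largest of these falls were in Msx2, with a difference of -0.98 (adjusted p = 2.90e-05), and Runx2, with -0.43 (adjusted p = 0.00252).

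The bHLH partners went both ways. Of 12 listed 7 were tested, and 3 rose and 4 fell on day 1 (median -0.17). Tcf12 and Tcf4, E proteins that Id proteins bind, rose by 0.24 (adjusted p = 4.60e-05) and 0.18 (adjusted p = 0.000172), and Tcf3, the gene of E12 and E47, had a difference of -0.17 (adjusted p = 0.000852). The sum of the 3 was 131 ± 3.57 FPKM on day 1, 122 ± 1.44 FPKM on day 3 and 123 ± 1.01 FPKM in control (SD, n = 3 each). Per unit of E protein RNA there was 4.90 ± 0.114 of Id RNA on day 1, 4.28 ± 0.176 on day 3 and 4.53 ± 0.137 in control. The day 1 libraries (4.77 to 4.98) were above all others, and those of day 3 (4.10 to 4.46) overlapped with control (4.37 to 4.62).

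Hes1, a repressor of neuronal genes, rose by 0.59 on the log2 scale, to 20.0 FPKM on day 1, against 13.6 FPKM in control (adjusted p = 3.36e-06). Olig2, which specifies oligodendrocytes and whose protein Id2 and Id4 can bind, fell to 48.8 FPKM on day 1 (-0.55, adjusted p = 3.45e-07) and 60.7 FPKM on day 3 (-0.25, adjusted p = 0.00123), against 73.2 FPKM in control. Against day 1, Olig2 rose on day 3 by 0.30 (adjusted p = 4.20e-05) and Olig1, its relative, by 0.22 (adjusted p = 0.00124), while Hes1 had a difference of -0.53 (adjusted p = 1.09e-05).

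Counted over all 6 lists, 50 of 78 pathway genes were tested. Of these, 29 rose and 14 fell on day 1, 13 were above and 5 below control on day 3, and 10 rose and 27 fell on day 3 against day 1. Without control replicate 2, 8 were above and 4 below control on day 3. These lists were drawn up with earlier results of these data known, and their counts stand beside shares of 31.1% and 31.1% of all genes on day 1, 7.37% and 6.45% on day 3, and 27.9% and 28.4% between the days.

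**Figure D4:**
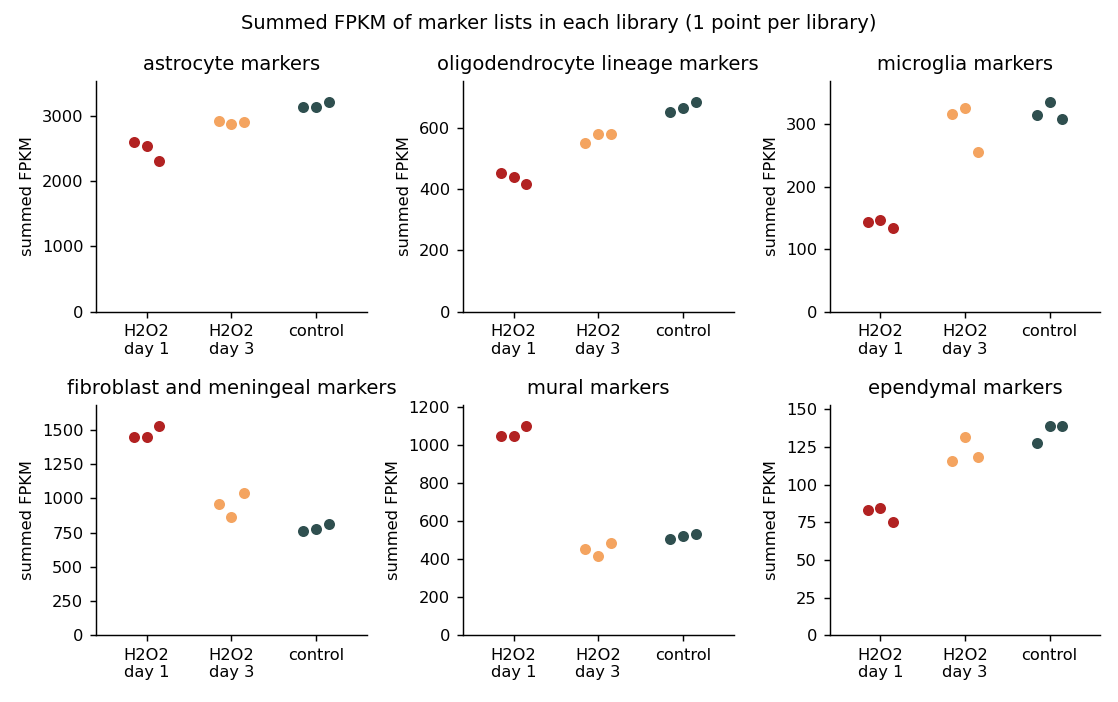
Summed FPKM of astrocyte, oligodendrocyte lineage, microglia, fibroblast and meningeal, mural and ependymal markers in every library. H2O2 day 1, H2O2 day 3 and control run from left to right, points are libraries and axes start at 0. Endothelial and neuron markers are not shown. Sums for microglia, the oligodendrocyte lineage, ependymal cells and astrocytes were lowest on day 1, and those for fibroblasts and mural cells were highest on day 1.

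Markers of several cell types moved with these genes. The sum of 10 astrocyte markers was 2309 to 2596 FPKM on day 1, 2879 to 2914 FPKM on day 3 and 3131 to 3209 FPKM in control, of which Gfap alone averaged 1235 FPKM on day 1, 1333 FPKM on day 3 and 1493 FPKM in control. On day 1, 7 of the 10 fell, and Aldh1l1 (0.34, adjusted p = 2.20e-05) and Aqp4 (0.16, adjusted p = 0.000502) rose. Markers of the oligodendrocyte lineage (12 genes, with Mog and Enpp6 under 1 FPKM on average) summed to 416 to 452 FPKM on day 1, 549 to 580 FPKM on day 3 and 652 to 683 FPKM in control, and all 10 tested fell on day 1. Microglia markers (12 genes, P2ry12 under 1 FPKM) summed to 134 to 147 FPKM on day 1, 256 to 327 FPKM on day 3 and 309 to 336 FPKM in control, with 10 of 11 tested lower and 1 higher on day 1. Ependymal markers (6 genes) summed to 75.4 to 84.7 FPKM on day 1, 116 to 131 FPKM on day 3 and 128 to 139 FPKM in control. These 4 sums were lowest on day 1, as were Bmp4, Bmp6 and Bmp7; day 3 and control overlapped for microglia and ependymal cells. Neuron markers (6 genes, 4 under 1 FPKM) summed to 74.3 to 78.4 FPKM on day 1, 75.7 to 76.9 FPKM on day 3 and 69.2 to 70.5 FPKM in control.

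Fibroblast and meningeal markers (10 genes, Slc6a13 under 1 FPKM) summed to 1445 to 1528 FPKM on day 1, 866 to 1036 FPKM on day 3 and 762 to 809 FPKM in control, and 4 of 9 tested rose and 5 fell on day 1, so the sum was carried by a few genes such as Col1a1, a collagen chain, with 1026 FPKM on day 1, 501 FPKM on day 3 and 392 FPKM in control on average. Mural markers (8 genes) summed to 1045 to 1100 FPKM on day 1, 418 to 482 FPKM on day 3 and 503 to 534 FPKM in control, of which Acta2, smooth muscle actin, gave 996 FPKM on day 1, 405 FPKM on day 3 and 479 FPKM in control on average. These 2 sums were highest on day 1, as were Grem1, Id1, Id2 and Id3. The part of these cell types in the levels of the 9 genes was not tested.

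Profiles over the 9 libraries were also compared by distance, the root of the summed squared differences between log2 values centred on each gene's mean, over the 12611 genes tested. The genes nearest to Bmp6 were Shisa9 (distance 0.106), with 2.57 FPKM on day 1, 5.06 FPKM on day 3 and 5.52 FPKM in control, and Prtg (0.123). Bmp7 had more distant neighbours, Cldn11 (0.461), a tight-junction gene on the oligodendrocyte list with 5.16 FPKM on day 1, 17.3 FPKM on day 3 and 28.8 FPKM in control, and Dio3 (0.465), a deiodinase that inactivates thyroid hormone. Bmp4 was nearest to Sugct (0.276) and Pcdhgb7 (0.296). The nearest genes were the ribosomal protein gene Rpl5 (0.132) and Srp19 (0.139) for Id1, Nuak1 (0.0624) and the protease gene Adam10 (0.0743) for Id2, Orc5 (0.0928) and Atp5g1 (0.0963) for Id3, and Cby1 (0.0950) and the glutamate receptor gene Gria2 (0.133) for Id4. The 9 genes themselves were left out of this search.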

How the data were processed

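Per the labels' protocols, polyadenylated RNA was made into libraries with a NEBNext Ultra RNA kit. The submitters' processing notes name FastQC 0.12.1, cutadapt 2.6, STAR 2.7.3a, DESeq2 and the build GRCm38; their settings are not given there. The deposited table holds FPKM, scaled by the authors for gene length and library total. Library totals, given as depth, were estimated from genes of low FPKM. For each of the 20350 genes above 0, a length was then searched for that gave whole reads within a set tolerance of 0.01 read. A length was found for all of them, though genes seen in few libraries could hardly miss it.

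Libraries were scaled by median-of-ratios factors (0.975 to 1.02), and log2(FPKM + 0.1) was fitted with limma 3.58.1 (R 4.3.3) by group over all 9 libraries, with an intensity trend, for the 12611 genes whose mean reached 1 FPKM. Tests were two-sided, with Benjamini-Hochberg adjustment over all genes tested. The fit was also run on simulated reads whose spread was chosen and not taken from these libraries. No result here rests on that run. Counts had been planned for, and the unit was FPKM. Bmp2 and Grem1 were taken from the same fit with no filter.

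The 9 genes and the lists were chosen with earlier results of these data known. Named are the 9 genes, up to 2 called genes per list, comparison and direction, a fixed set of pathway genes and the 2 nearest profiles, except that some results are not reported here; others were named after their values were seen.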

Additional observations from a re-analysis of the deposited data

Results flagged for a closer look

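Id3 was on opposite sides of control on the 2 days, in every library. It averaged 376 FPKM on day 1, 312 FPKM on day 3 and 342 FPKM in control, and its difference of day 3 from day 1 was -0.29 on the log2 scale (SE 0.042, 95% interval -0.38 to -0.19). This was past the threshold in the fit over all genes and is given as a description, since the gene was chosen with its values known. In that fit the day 3 difference of Id3 from control (-0.11) was not past the threshold. Over all settings, this day 3 difference was past the threshold in 3 of 21. With quantile normalization, the day 1 difference of Id3 from control was 0.03 and was not past the threshold.

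Atoh8, a bHLH gene of the list of other BMP-responsive genes, showed the same order. It averaged 23.1 FPKM on day 1, 19.4 FPKM on day 3 and 21.0 FPKM in control. In FPKM as deposited, each day 1 library was above and each day 3 library below all control libraries. The closest were day 3 replicate 2 (19.7 FPKM) and control replicate 1 (19.8 FPKM). Scaling (factors 0.986 and 0.995) reversed the order of these libraries, so day 3 and control overlapped on the scaled values. Against control Atoh8 rose on day 1 by 0.17 on the log2 scale (adjusted p = 0.00165), and the day 3 difference of -0.09 did not pass (adjusted p = 0.103). The difference of day 3 from day 1 was -0.26 (adjusted p = 9.91e-05).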

How the results depend on the processing

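Other pseudocounts, filters, scalings, a fit without the intensity trend, a fit of 6 libraries, limma-voom on recovered reads, and leaving out libraries reversed no difference that was past the threshold. Grem1 and Bmp2 were not covered by these alternatives, since both were fitted in 1 setting only, the fit with no filter. Leaving out 1 library gave 1031 to 1760 genes called on day 3 against control (1742 with all; 1031 without day 3 replicate 3) and 1 to 4 of the 9 genes past the threshold there (3 with all; 1 without control replicates 1 or 3 or day 3 replicates 1 or 3). Against control, limma-voom called 2462 genes on day 3. The labels do not say whether replicate numbers pair the samples. Deviations of libraries with the same number had correlations of -0.079 to 0.111, and those with different numbers -0.149 to 0.147. With so few libraries this does not settle whether they were paired. With the replicate block, 7894 genes were called on day 1, 1807 on day 3 and 7167 on day 3 against day 1, and 7, 3 and 6 of the 9 genes were past the threshold; for pathway genes the counts were 44, 19 and 38. Without rescaling, 3319 genes were higher and 4348 lower on day 1, against 3923 and 3916 with it. Reads limit Grem1 and Bmp2 most, with 4 to 55 reads per library.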
